A study of Mus musculus with 12 samples.

Results

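Transcript levels of lysosome and autophagy genes were compared in pancreatic islets from mice of 4 genotypes, profiled on 12 Affymetrix mouse expression arrays. The rule named 44 genes. Each was represented by its brightest probe set, judged by the mean of the 12 arrays, among the probe sets paired with that symbol alone. Of the 44, 39 were matched, of 17097 genes on the array with such a probe set, and all 39 lay above the minimum mean level used for testing, as did 12825 genes in all. No probe set was matched by the rule for Cd63, Sqstm1, Map1lc3b, Optn and Vps18, and these 5 genes were not analysed here. Of the 39, 25 had several probe sets to choose from and 14 had 1.

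The groups were wild-type mice (WT), mice that express human islet amyloid polypeptide from a transgene (hIAPP-Tg), mice without BACE2 (BACE2-KO), and mice with the transgene and without BACE2 (hIAPP-TgxBACE2-KO, below the combined genotype). Each genotype had 3 arrays. All mice were 12 weeks old and ate standard chow, and all 4 groups, WT included, carry the strain name B6;129P2-Bace2tm1Bdes/J in the labels. Which promoter drives the transgene is not stated in the labels. The labels name a mouse for each array but do not say whether islets of several animals were joined, so a p-value here reflects array-to-array spread, which may be partly technical. Human islet amyloid polypeptide is a beta-cell hormone that can aggregate into amyloid. BACE2 is a membrane-bound aspartyl protease that beta cells express.

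Lysosomes are acidic organelles in which hydrolases break down proteins, sugars and lipids. A proton pump, the V-ATPase, acidifies them, and membrane proteins such as LAMP1 and LAMP2 line them. In macroautophagy a double membrane closes around cytoplasm and the resulting autophagosome fuses with a lysosome; initiation kinases, the ATG conjugation enzymes and lipid-bound ATG8 proteins build it. In beta cells this route removes worn organelles and aggregated protein, including amyloid polypeptide. The transcription factors TFEB and TFE3 bind the letters CACGTG in promoters of many lysosomal genes.

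The promoter letters are shown first because this motif is the one named above for those 2 regulators; binding was not measured here. Promoters came from the RefSeq table of build GRCm38.p6 and span 250 bases before to 50 bases after each gene's start. Of the 39 genes, 31 were matched in that table. CACGTG, which reads the same on both strands, was found in 12 of these 31 promoters (38.7%), against 11.3% of the 10334 tested genes with a promoter and 7.15% of all 32851 promoters of this length. The longer TCACGTG, searched on both strands and always overlapping a CACGTG, was found in 10 (32.3%), against 6.64% of the tested genes. A match describes letters in this window and not a bound site. Of 19 matches, 18 began before the start, and the windows below, all upstream of the start on the gene's own strand, show genes whose values are given further on, with the CACGTG in capitals.
Lamp1, chr8:13159085-13159160, plus strand: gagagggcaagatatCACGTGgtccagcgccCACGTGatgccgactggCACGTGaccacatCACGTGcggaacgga
Mcoln1, chr8:3500433-3500494, plus strand: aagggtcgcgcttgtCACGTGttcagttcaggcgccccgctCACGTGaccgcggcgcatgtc
Ctsd, chr7:142387905-142387940, minus strand: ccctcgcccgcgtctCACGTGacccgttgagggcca
Glb1, chr9:114401015-114401050, plus strand: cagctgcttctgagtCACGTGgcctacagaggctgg
Gaa, chr11:119267808-119267843, plus strand: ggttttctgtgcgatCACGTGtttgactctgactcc
Atg5, chr10:44268310-44268338, plus strand: gggcggagcgcttgcCACGTGgtcttggt
Atg7, chr6:114670949-114670984, plus strand: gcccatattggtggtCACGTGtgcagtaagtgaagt
Lamp1 held 4 matches within 76 bases and Mcoln1 held 2 within 62. The other match of Ctsd began at position -245 from the start. The other genes with a match were Atg3, Atp6v0d1, Atp6v1a, Ctsa and Ctsl.

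All levels below are log2 values on the deposited scale, where a difference of 1 is a 2-fold change, and values in a sentence are in the order of replicates 1, 2 and 3. The highest reading of the file was 14.03 and the lowest 2.32, and array medians ran from 4.22 to 4.35. Insulin (Ins2) read 13.93 to 14.03 and glucagon (Gcg) 13.05 to 13.22 over the 12 arrays. The Bace2 probe set averaged 11.09 in WT, 10.94 in BACE2-KO and 10.85 in the combined genotype. It gave no check of the genotype, and where its probes lie relative to the deletion was not analysed here.

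Not 1 of the 39 genes was called in any of the 8 comparisons (limma with a variance trend, Benjamini-Hochberg adjusted p under 0.05 over the 12825 genes). Against WT, 0 of 39 were called in hIAPP-Tg, where 0.0156% of all genes were, and 2 of 39 had an unadjusted p under 0.05, against 4.53% of all genes. In BACE2-KO minus WT the figures were 0 called against 0.125%, and 0 at an unadjusted p against 6.28%. For the combined genotype minus WT they were 0 against 0.133%, and 2 against 8.43%. For the combined genotype minus hIAPP-Tg they were 0 against 0.101%, and 3 (7.69%) against 8.37%. For the combined genotype minus BACE2-KO no gene of the array was called, and 3 members (7.69%) had an unadjusted p under 0.05, against 4.44% of all genes.

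A further 3 comparisons used all 4 groups. BACE2 loss averaged over transgene status called 0 of 39, against 0.912% of all genes, with 4 (10.3%) at an unadjusted p under 0.05 against 11.4%. The transgene averaged over BACE2 status called 0 of 39 against 0.0078%, with 6 (15.4%) against 7.59%. The interaction, the transgene's difference without BACE2 minus its difference with BACE2, called 0 of 39 against 0.0078%, with 1 (2.56%) against 2.4%. These comparisons share arrays, so their values are not independent of each other.

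Most members differed little between genotypes. In hIAPP-Tg minus WT, 35 of 39 differences were under 0.2 in size, and in BACE2-KO minus WT 34 were. For the combined genotype the count was 36 against WT, 32 against hIAPP-Tg and 32 against BACE2-KO. The 95% interval lay within -0.5 to 0.5 for 36, 31, 36, 32 and 33 of the 39 in the same order. The SE of a difference between 2 genotypes ran from 0.061 to 0.231. The spread of replicates around their group mean had a median SD of 0.13 over the 39, against 0.17 over all genes tested. The number of arrays limits the precision, and an interval that includes 0 does not show that 2 genotypes had the same level.

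The members' median difference was -0.020 in hIAPP-Tg minus WT, 0.023 in BACE2-KO minus WT and -0.040 in the combined genotype minus WT. Over all genes tested these medians were -0.030, 0.0067 and -0.0033. For the transgene averaged over BACE2 status, 14 members were higher and 25 lower with a median of -0.048, while 42.4% of all genes were higher. For BACE2 loss averaged over transgene status, 18 were higher and 21 lower with a median of -0.0017, while 55.7% of all genes were higher. The mean level of the 39 lay between 9.08 and 9.22 in every array, and the lowest was replicate 1 of the combined genotype, which gave the lowest of 12 readings for 9 of the 39. Replicate 2 of hIAPP-Tg also gave the lowest reading for 9.

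**Figure D1:**
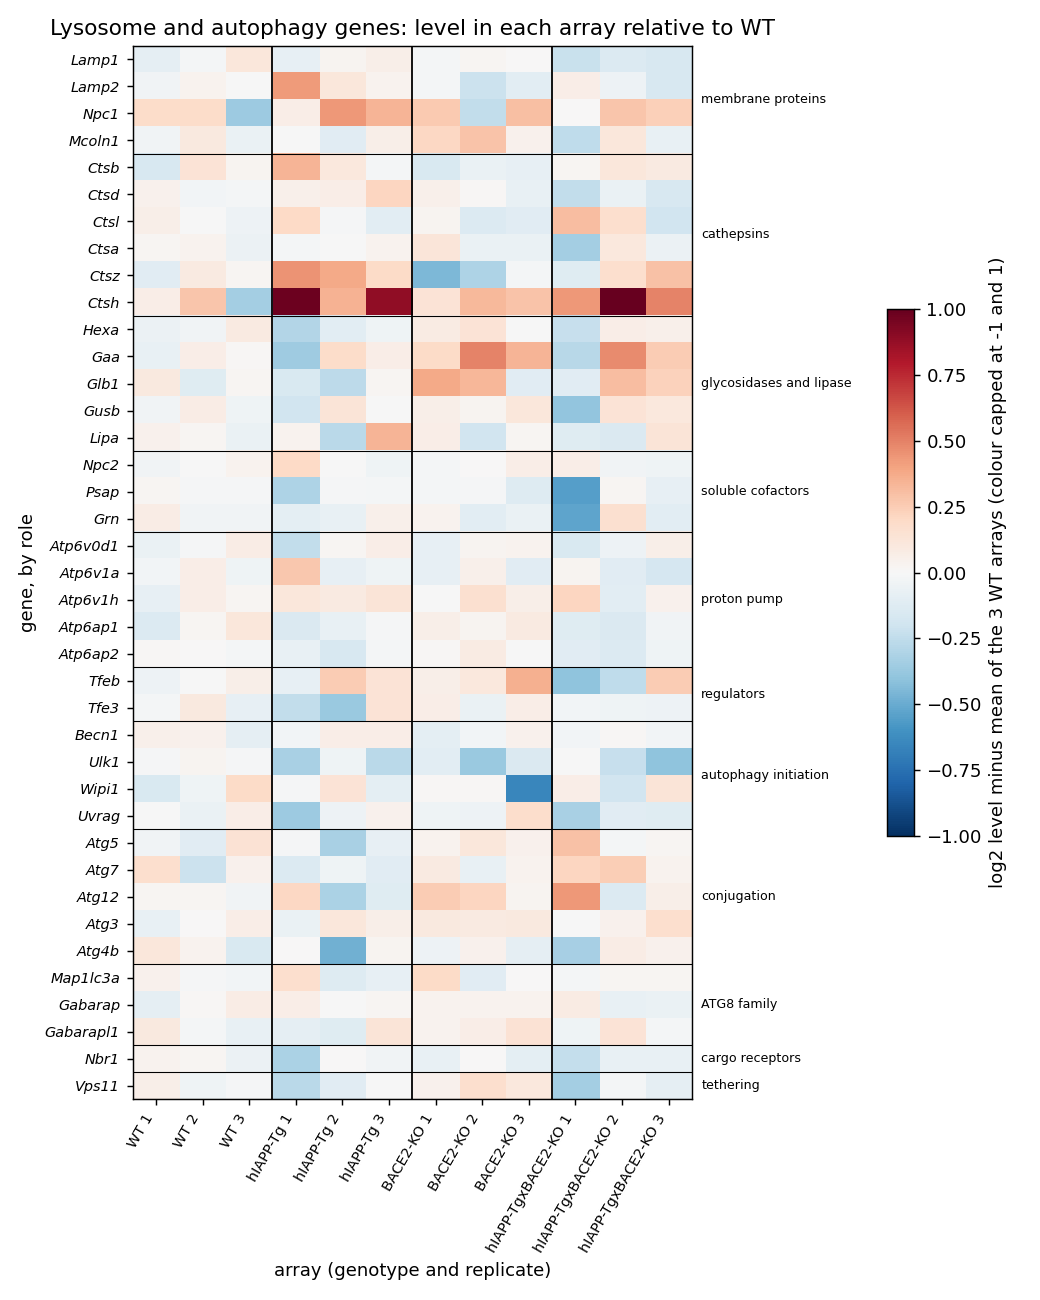
Each row is 1 of the 39 genes, grouped by role, and each column 1 of the 12 arrays; colour shows the log2 level minus the mean of the 3 WT arrays, capped at -1 and 1. The strongest colours lie in the Ctsh row in hIAPP-Tg and the combined genotype, and the first array of the combined genotype has blue fields for Psap and Grn.

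Among the membrane proteins, Lamp1, a major glycoprotein of the lysosomal membrane with 1 probe set, had its lowest readings in the combined genotype. It read 11.37, 11.44 and 11.57 in WT, 11.38, 11.49 and 11.52 in hIAPP-Tg, and 11.44, 11.48 and 11.46 in BACE2-KO. It read 11.24, 11.32 and 11.30 in the combined genotype. All 3 arrays of the combined genotype lay below all 9 others, and how many of all genes share this pattern was not counted. The difference was -0.17 from WT (SE 0.068, adjusted p = 0.504), -0.18 from hIAPP-Tg (adjusted p = 0.486) and -0.17 from BACE2-KO (adjusted p = 0.961), none of them called. Groups did not overlap for 6 of 39 members (15.4%) in the combined genotype minus WT, where 14.9% of all genes did not. The figures were 3 of 39 (7.69%) against 11.1% for the combined genotype minus hIAPP-Tg, and 7 of 39 (17.9%) against 9.68% for the combined genotype minus BACE2-KO.

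Lamp2, the related membrane protein that also serves chaperone-mediated autophagy, read 11.33, 11.40 and 11.36 in WT, 11.79, 11.48 and 11.40 in hIAPP-Tg, 11.34, 11.15 and 11.26 in BACE2-KO, and 11.43, 11.31 and 11.20 in the combined genotype. Its highest reading by far was replicate 1 of hIAPP-Tg, an array that also held the lowest mean of the 8 beta-cell markers (10.43). The combined genotype minus hIAPP-Tg was -0.24 (SE 0.099, adjusted p = 0.517), and -0.13 without that array. BACE2 loss averaged over transgene status was -0.18 (SE 0.070, adjusted p = 0.343). The 3 Lamp2 probe sets gave -0.18, -0.21 and -0.14 for this comparison.

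Mcoln1 encodes the lysosomal calcium channel TRPML1. It read 7.01, 7.14 and 6.98 in WT, 7.04, 6.93 and 7.10 in hIAPP-Tg, 7.25, 7.33 and 7.09 in BACE2-KO, and 6.79, 7.16 and 6.97 in the combined genotype. BACE2-KO held the 2 highest readings, but the groups overlapped, and the combined genotype minus BACE2-KO was -0.25 (SE 0.12). Npc1, the membrane protein that exports cholesterol from lysosomes, ranged from 5.60 to 6.39 with overlap between all groups. In the brightest probe set of each gene, all 4 membrane proteins were lower in the combined genotype than in hIAPP-Tg. The differences were -0.24 to -0.050 with 0 called, and 42.4% of all genes were lower. The dimmer Mcoln1 probe sets, with means of 6.83 and 3.93, gave 0.047 and -0.010.

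The cathepsins, the lysosomal proteases, held the 2 largest differences of the 39 genes in hIAPP-Tg minus WT and in the transgene comparison averaged over BACE2 status, Ctsh and Ctsz. Ctsh, the aminopeptidase cathepsin H, read 6.38, 6.59 and 5.97 in WT and 7.29, 6.66 and 7.20 in hIAPP-Tg. It read 6.45, 6.64 and 6.60 in BACE2-KO and 6.75, 7.55 and 6.81 in the combined genotype. Every hIAPP-Tg and every combined-genotype array lay above every WT array and every BACE2-KO array. The means were 6.31 ± 0.32 in WT, 7.05 ± 0.34 in hIAPP-Tg, 6.56 ± 0.10 in BACE2-KO and 7.04 ± 0.45 in the combined genotype (SD, n = 3 each).

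For Ctsh, hIAPP-Tg minus WT was 0.74 (1.67-fold, SE 0.23, 95% interval 0.24 to 1.24, adjusted p = 0.95 by limma). The transgene averaged over BACE2 status gave 0.60 (1.52-fold, SE 0.16, adjusted p = 0.644), and neither was called. Groups did not overlap for 5 of 39 members (12.8%) in hIAPP-Tg minus WT, where 9.16% of all genes did not. Leaving out 1 array at a time kept the averaged difference between 0.48 and 0.70. Ctsh, Ctsd, Glb1 and Gaa each had 1 probe set paired with the symbol alone, so no other was compared.

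Ctsz, the carboxypeptidase cathepsin Z, read 10.28, 10.48 and 10.41 in WT and 10.84, 10.77 and 10.58 in hIAPP-Tg. It read 9.94, 10.08 and 10.37 in BACE2-KO and 10.27, 10.56 and 10.68 in the combined genotype. The order of the means was hIAPP-Tg (10.73 ± 0.13), the combined genotype (10.50 ± 0.21), WT (10.39 ± 0.10) and BACE2-KO (10.13 ± 0.22, SD, n = 3 each). Neighbours in this order overlapped, and in this probe set hIAPP-Tg lay above WT and BACE2-KO without overlap. In the dimmer Ctsz probe sets hIAPP-Tg overlapped WT. There hIAPP-Tg minus WT was 0.30 and 0.09, against 0.34 in the brightest. The transgene averaged over BACE2 status was 0.36 (SE 0.089, unadjusted p = 0.00154, adjusted p = 0.644), and BACE2 loss averaged over transgene status was -0.24 (SE 0.089, adjusted p = 0.303). Its 3 probe sets gave 0.36, 0.32 and 0.28 for the transgene and -0.24, -0.21 and -0.18 for BACE2 loss.

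Ctsb, the cysteine protease cathepsin B, had a transgene difference averaged over BACE2 status of 0.16 (SE 0.068, adjusted p = 0.644). It read 11.38, 11.68 and 11.57 in WT and 11.88, 11.65 and 11.52 in hIAPP-Tg, which overlap. It read 11.39, 11.48 and 11.46 in BACE2-KO, all below the 11.56, 11.66 and 11.63 of the combined genotype. The other 3 Ctsb probe sets gave transgene differences of 0.22, 0.31 and 0.25.

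Ctsd, the main aspartyl protease of lysosomes, was lowest in the combined genotype. It read 9.94, 9.87 and 9.88 in WT, 9.95, 9.96 and 10.11 in hIAPP-Tg, 9.95, 9.91 and 9.82 in BACE2-KO, and 9.65, 9.83 and 9.74 in the combined genotype. The combined genotype lay below WT and hIAPP-Tg without overlap and overlapped BACE2-KO. Its difference from hIAPP-Tg was -0.27 (SE 0.073, unadjusted p = 0.00312, adjusted p = 0.313), between -0.31 and -0.21 with 1 array left out at a time. The interaction was -0.26 (SE 0.10, unadjusted p = 0.0249, adjusted p = 1 by limma).

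The other 2 cathepsins were flatter. Ctsl, the cysteine protease cathepsin L, ranged from 11.60 to 12.10, both in the combined genotype. Ctsa, the serine carboxypeptidase that also protects beta-galactosidase, ranged from 9.04 to 9.50. As a group, 6 of 6 cathepsins were higher in hIAPP-Tg than in WT, with a median of 0.12 and 0 called, and 41.6% of all genes were higher. These differences ran from 0.0033 for Ctsa and 0.027 for Ctsl, both near 0, to 0.74 for Ctsh. In the transgene comparison averaged over BACE2 status 4 of 6 were higher, with a median of 0.13.

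Macrophage markers were also higher in hIAPP-Tg. Of 16 tested macrophage and myeloid markers, 15 were higher in hIAPP-Tg than in WT with a median of 0.68, and 0 were called. The mean over all 18 listed markers was 5.36 to 5.67 in WT, 5.82 to 6.32 in hIAPP-Tg, 5.40 to 5.72 in BACE2-KO and 5.38 to 6.42 in the combined genotype. Lysozyme (Lyz2) read 6.61, 6.73 and 6.71 in WT and 8.76, 8.25 and 8.47 in hIAPP-Tg. The complement gene C1qb averaged 6.37 ± 0.32 in WT and 7.10 ± 0.36 in hIAPP-Tg (SD, n = 3), and the signalling adaptor Tyrobp 6.01 ± 0.40 and 6.98 ± 0.18. In BACE2-KO the means of Lyz2, C1qb and Tyrobp were 6.94, 6.15 and 6.01. In the combined genotype they were 7.16, 6.77 and 6.28. Over the 12 arrays C1qa read 8.11 to 8.99, Cd68 6.53 to 7.88 and Fcer1g 6.53 to 7.77, all well above the array medians. The receptor genes were dimmer. Adgre1 read 3.80 to 4.74 and Csf1r 4.27 to 4.95, around or a little above the array medians, and Csf1r averaged 4.82 ± 0.20 in WT and 4.56 ± 0.18 in hIAPP-Tg (SD, n = 3). Mrc1 (2.84 to 3.69) and Itgam (3.05 to 3.66) lay below every array median. The 2 arrays with the highest marker means, replicate 2 of the combined genotype (6.42) and replicate 1 of hIAPP-Tg (6.32), also held the 2 highest Ctsh readings. Replicate 1 of the combined genotype differed, with a marker mean of 5.38, below every BACE2-KO array, and the lowest Lyz2 reading (6.23). Its Ctsh reading of 6.75 still lay above every WT and BACE2-KO reading (5.97 to 6.64).

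With the marker mean as a covariate, hIAPP-Tg minus WT was 0.23 for Ctsh, 0.22 for Ctsz and 0.074 for Ctsb, in place of 0.74, 0.34 and 0.14. The marker mean itself did not overlap between WT and hIAPP-Tg, so this fit cannot separate the markers from the genotype. The averaged transgene differences became 0.24, 0.27 and 0.11. For Ctsd the combined genotype minus hIAPP-Tg was -0.24 with the covariate, and for Lamp1 it was -0.18. In whole islets, more cells of a type and more RNA per cell cannot be told apart. Beta-cell markers were lower for the transgene averaged over BACE2 status in 8 of 8 (median -0.26). In that comparison 10 of 11 acinar markers were lower (median -0.40) and 5 of 5 stellate and fibroblast markers higher (median 0.51). Of all these markers 0 were called, and their part in the members' differences was not tested. The acinar mean as a covariate gave 0.67 for Ctsh and 0.31 for Ctsz.

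**Figure D2:**
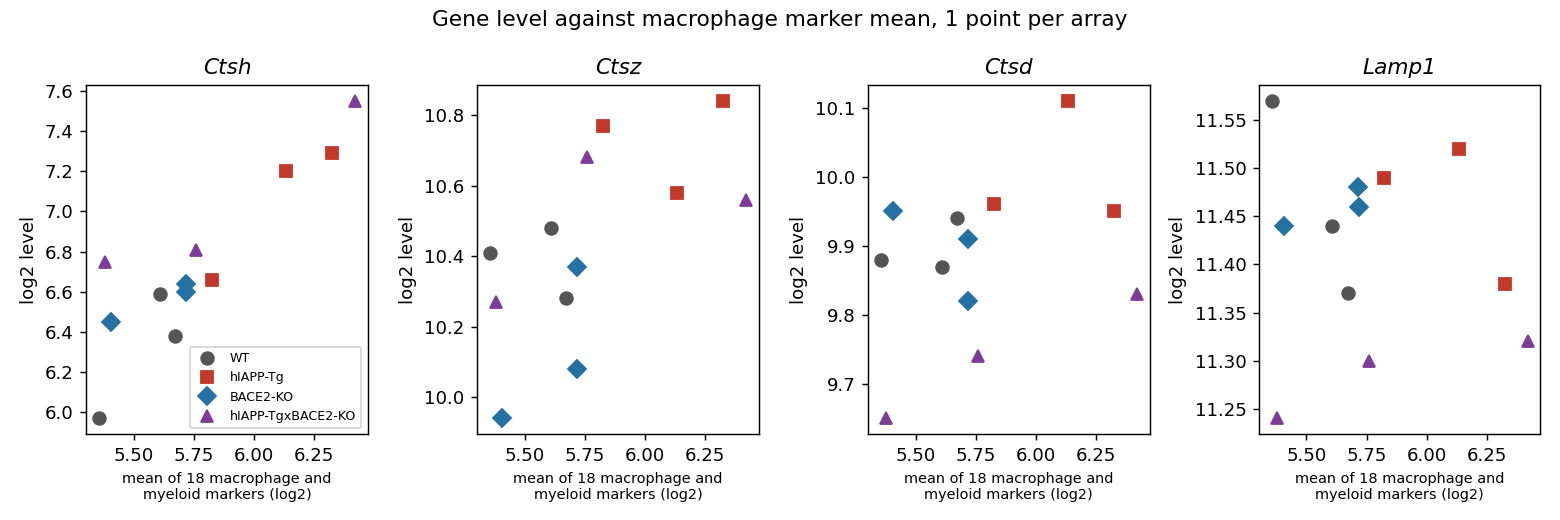
The log2 level of Ctsh, Ctsz, Ctsd and Lamp1 is plotted against the mean log2 level of 18 macrophage and myeloid markers, with 1 point per array coloured by genotype. The Ctsh points run from 5.97 at the lowest marker mean (5.36, WT replicate 3) to 7.55 at the highest (6.42, combined genotype replicate 2). Replicate 1 of the combined genotype has a Ctsh level of 6.75 at a marker mean of 5.38. The 3 Lamp1 points of the combined genotype stay at 11.24 to 11.32 across marker means of 5.38 to 6.42.

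The glycosidases and the lipase break down sugar chains and lipids. Glb1, lysosomal beta-galactosidase, read 7.43, 7.21 and 7.35 in WT, 7.18, 7.07 and 7.35 in hIAPP-Tg, 7.71, 7.66 and 7.22 in BACE2-KO, and 7.22, 7.64 and 7.56 in the combined genotype. In each group without BACE2, 2 of 3 arrays lay above all 6 arrays with BACE2, and the remaining array lay among them. BACE2 loss averaged over transgene status was 0.24 (SE 0.11, unadjusted p = 0.0454, adjusted p = 0.423).

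Gaa, the acid alpha-glucosidase that degrades glycogen, read 8.83, 8.97 and 8.92 in WT and 9.10, 9.40 and 9.25 in BACE2-KO, which do not overlap. It read 8.55, 9.09 and 8.97 in hIAPP-Tg and 8.63, 9.38 and 9.16 in the combined genotype, the widest spread. BACE2-KO minus WT was 0.34 (SE 0.18, adjusted p = 0.854). Groups did not overlap for 4 of 39 members (10.3%) in BACE2-KO minus WT, where 12.9% of all genes did not. Hexa, a subunit of beta-hexosaminidase, and Gusb, beta-glucuronidase, gave BACE2 differences averaged over transgene status of 0.092 and 0.020. A dimmer second Gusb probe set gave 0.23. Lipa, the acid lipase, was the 1 of these 5 genes with a negative value (-0.058).

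The soluble cofactors overlapped between all groups. Psap, the precursor of the saposins that help degrade sphingolipids, read 11.50, 11.47 and 11.47 in WT but 10.93, 11.50 and 11.40 in the combined genotype. Grn, the precursor of the granulins, read 9.33, 9.22 and 9.22 in WT and 8.73, 9.42 and 9.15 in the combined genotype. In both genes replicate 1 of the combined genotype stood lowest of the 12 arrays. Npc2, the soluble cholesterol carrier that works with NPC1, ranged only from 11.26 to 11.50.

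The proton pump genes varied least between arrays in Atp6ap2, the accessory subunit also known as the prorenin receptor. It read 11.89, 11.88 and 11.86 in WT, 11.80, 11.72 and 11.86 in hIAPP-Tg, 11.89, 11.96 and 11.87 in BACE2-KO, and 11.76, 11.74 and 11.83 in the combined genotype. The transgene averaged over BACE2 status gave -0.11 (SE 0.043, unadjusted p = 0.0287), with -0.10 and -0.12 in its other 2 probe sets. The other accessory subunit, Atp6ap1, gave -0.12 (SE 0.052, unadjusted p = 0.0423). Adjusted p-values of the 39 genes in this comparison ran from 0.644 to 0.985.

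The 3 subunits of the pump proper gave small values. Atp6v0d1, of the membrane sector, differed by -0.048 for the averaged transgene. Atp6v1a, the catalytic subunit, differed by 0.0067 and Atp6v1h, a regulatory subunit, by 0.047. For the combined genotype minus BACE2-KO all 5 pump genes were lower in the brightest probe set of each gene. The median was -0.043 with 0 called, and 53.5% of all genes were lower in that comparison. Atp6v1h differed by only -0.017, and a dimmer Atp6v1a probe set (mean 9.52) gave 0.053.

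**Figure D3:**
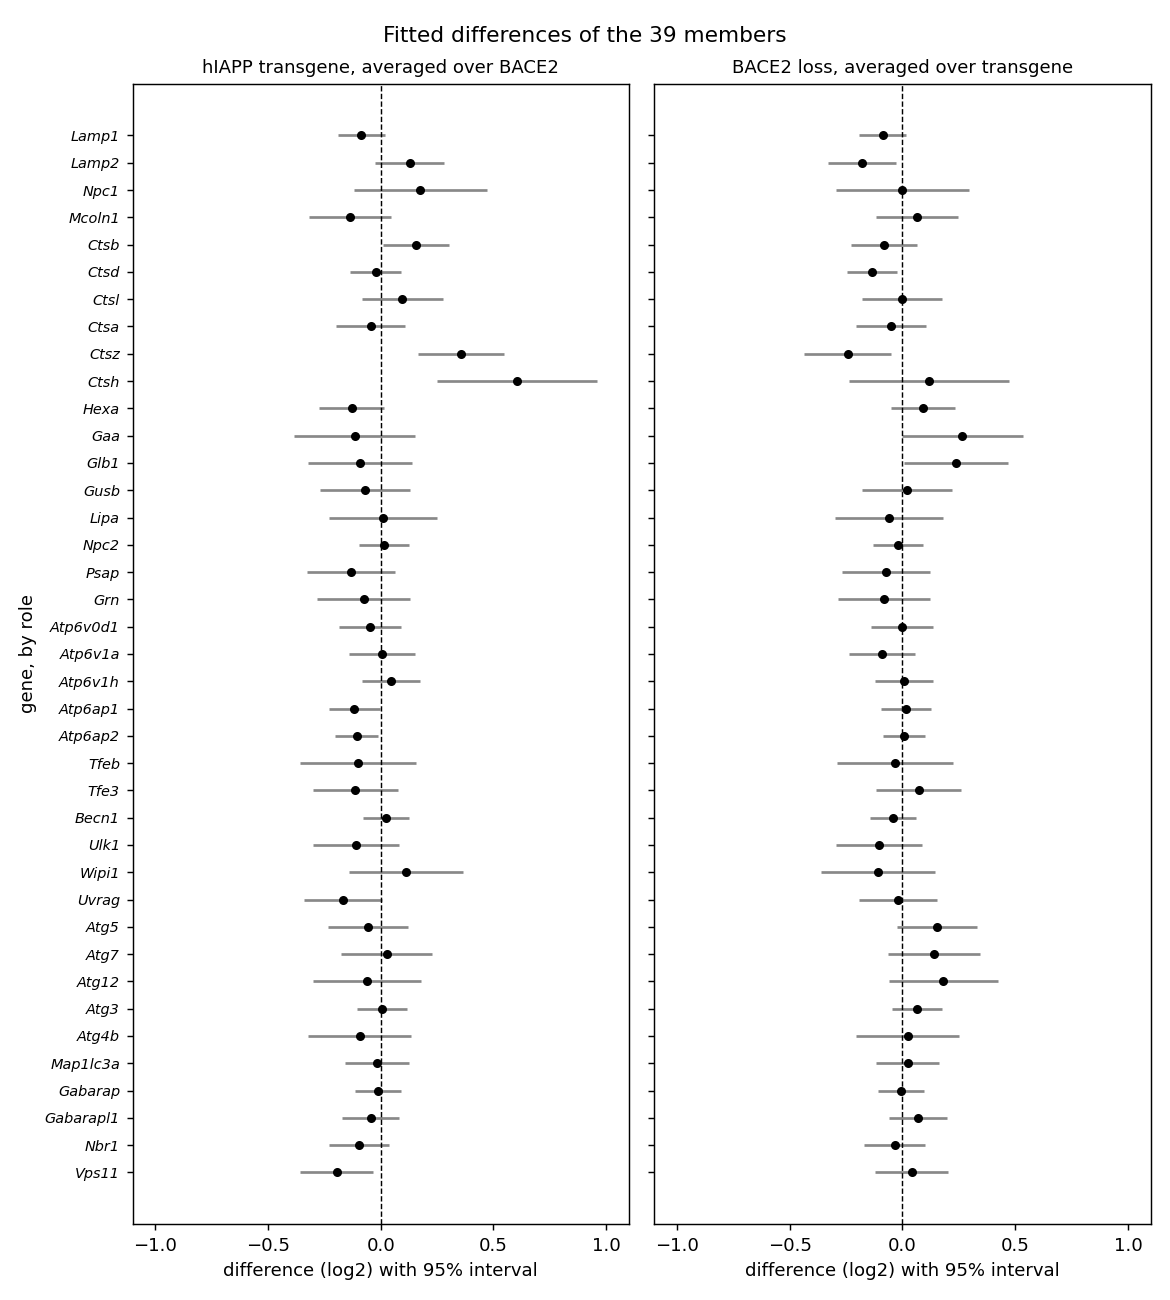
Points show the fitted log2 difference of each of the 39 genes and bars its 95% interval, for the transgene averaged over BACE2 status (left) and BACE2 loss averaged over transgene status (right). Ctsh (0.60) and Ctsz (0.36) lie farthest to the right on the left side, and Ctsz (-0.24) lies farthest to the left on the right side; no interval accounts for the number of genes tested.

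The regulators Tfeb and Tfe3, the transcription factors of lysosomal genes, gave wide and overlapping readings. Tfeb read 4.05, 4.10 and 4.16 in WT, 4.02, 4.36 and 4.24 in hIAPP-Tg, 4.16, 4.21 and 4.46 in BACE2-KO, and 3.70, 3.85 and 4.36 in the combined genotype. Its probe set was dim, with a mean of 4.14 against a minimum of 3.43 for testing, and its interaction was -0.41 with a 95% interval of -0.92 to 0.10. Tfe3 read 7.60, 7.72 and 7.54 in WT, 7.37, 7.25 and 7.76 in hIAPP-Tg, 7.69, 7.55 and 7.69 in BACE2-KO, and 7.59, 7.58 and 7.57 in the combined genotype. The 3 arrays of the combined genotype lay within 0.02 of each other, and those of hIAPP-Tg spanned the whole range of the 12.

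Among the initiation genes, Ulk1, the kinase that starts autophagy, was tightest in WT. It read 7.44, 7.48 and 7.44 in WT, 7.13, 7.41 and 7.18 in hIAPP-Tg, 7.35, 7.08 and 7.31 in BACE2-KO, and 7.45, 7.22 and 7.05 in the combined genotype. All hIAPP-Tg and BACE2-KO arrays lay below all WT arrays, and 1 array of the combined genotype did not. The differences from WT were -0.21 in each of the 3 genotypes (SE 0.12), with adjusted p-values of 0.95 for hIAPP-Tg and 0.677 for the combined genotype.

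Uvrag, a partner of beclin 1 in the lipid kinase complex, had a transgene difference averaged over BACE2 status of -0.17 (SE 0.080). It read 8.21, 8.42 and 8.41 in the combined genotype, below every WT reading (8.47 to 8.60) and every BACE2-KO reading (8.48 to 8.71). Becn1, which encodes beclin 1, ranged only from 10.17 to 10.34 over the 12 arrays.

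Wipi1, which binds the phosphoinositide made at the forming autophagosome, read 8.98, 8.98 and 8.32 in BACE2-KO and 8.82 to 9.16 in WT. BACE2-KO minus WT was -0.21 (SE 0.16), and it was 0.010 without replicate 3 of BACE2-KO. All 6 Wipi1 probe sets had their lowest reading of 12 in that array, and they gave differences of -0.21 to -0.67. In BACE2 loss averaged over transgene status 4 of 4 initiation genes were lower in the brightest probe set of each gene. The median was -0.073 with 0 called, and 44.2% of all genes were lower. Uvrag gave only -0.018. Becn1 gave -0.042, and its dimmer probe sets, with means of 9.10 and 4.12, gave 0.050 and -0.0050.

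The conjugation genes attach ATG12 to ATG5 and ATG8 proteins to lipid. In BACE2 loss averaged over transgene status 5 of 5 were higher in the brightest probe set of each gene. The median was 0.14 with 0 called, and 55.7% of all genes were higher. Other probe sets of these genes gave smaller or negative values. Atg5, the acceptor of ATG12, read 7.72, 7.64 and 7.90 in WT, 7.74, 7.43 and 7.67 in hIAPP-Tg, 7.79, 7.87 and 7.80 in BACE2-KO, and 8.05, 7.73 and 7.77 in the combined genotype. Its difference for averaged BACE2 loss was 0.15 (SE 0.082, unadjusted p = 0.0878 by limma). The other Atg5 probe sets, with means of 7.66 and 7.55 against 7.76, gave 0.013 and 0.073. Atg7, the activating enzyme, read 5.71, 5.80 and 5.73 in hIAPP-Tg and 6.06, 6.09 and 5.88 in the combined genotype, which do not overlap and differed by 0.26 (SE 0.13). That difference was -0.13, -0.027 and 0.060 in the other 3 Atg7 probe sets, which are dimmer. For averaged BACE2 loss Atg7 gave 0.14, and the other 3 probe sets gave -0.0033, -0.0017 and 0.042.

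Atg12, the small modifier itself, gave 0.18 (SE 0.11) for averaged BACE2 loss, and its dimmer probe sets gave 0.11 and 0.018. Atg3, the conjugating enzyme for ATG8 proteins, read 9.98, 10.06 and 10.12 in WT and 10.15, 10.14 and 10.15 in BACE2-KO, a difference of 0.093 without overlap. Atg4b, the protease that prepares ATG8 proteins, gave 0.023 for averaged BACE2 loss, and its lowest reading was 7.41 in hIAPP-Tg replicate 2. The second Atg4b probe set gave -0.020 for averaged BACE2 loss.

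The ATG8 family, whose lipid-bound forms coat autophagosomes, varied little in the brightest probe set of each gene. Gabarap ranged from 11.34 to 11.51, Gabarapl1 from 10.24 to 10.51 and Map1lc3a from 9.67 to 9.99 over the 12 arrays. Their differences lay between -0.030 and 0.027 in hIAPP-Tg minus WT and between 0.027 and 0.083 in BACE2-KO minus WT. Dimmer second probe sets gave larger values. For Map1lc3a (mean 8.09) they were 0.20 in hIAPP-Tg minus WT and 0.11 in BACE2-KO minus WT. For Gabarapl1 (mean 9.31) they were 0.11 and 0.17. Nbr1, a receptor that brings ubiquitin-tagged cargo to autophagosomes, read 10.15, 10.14 and 10.06 in WT and 9.88, 10.04 and 10.04 in the combined genotype. Those groups did not overlap, and the difference was -0.13 (SE 0.087, unadjusted p = 0.162).

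Vps11, a core subunit of the complexes that tether endosomes and autophagosomes to lysosomes, read 7.77, 7.89 and 7.83 in BACE2-KO and 7.38, 7.70 and 7.63 in the combined genotype. The groups did not overlap and differed by -0.26 (SE 0.11, unadjusted p = 0.0289, adjusted p = 0.961). The transgene averaged over BACE2 status was -0.20 (SE 0.074, unadjusted p = 0.0218). Its next probe set gave -0.21 and its dimmest, with a mean of 3.42, gave 0.14.

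**Figure D4:**
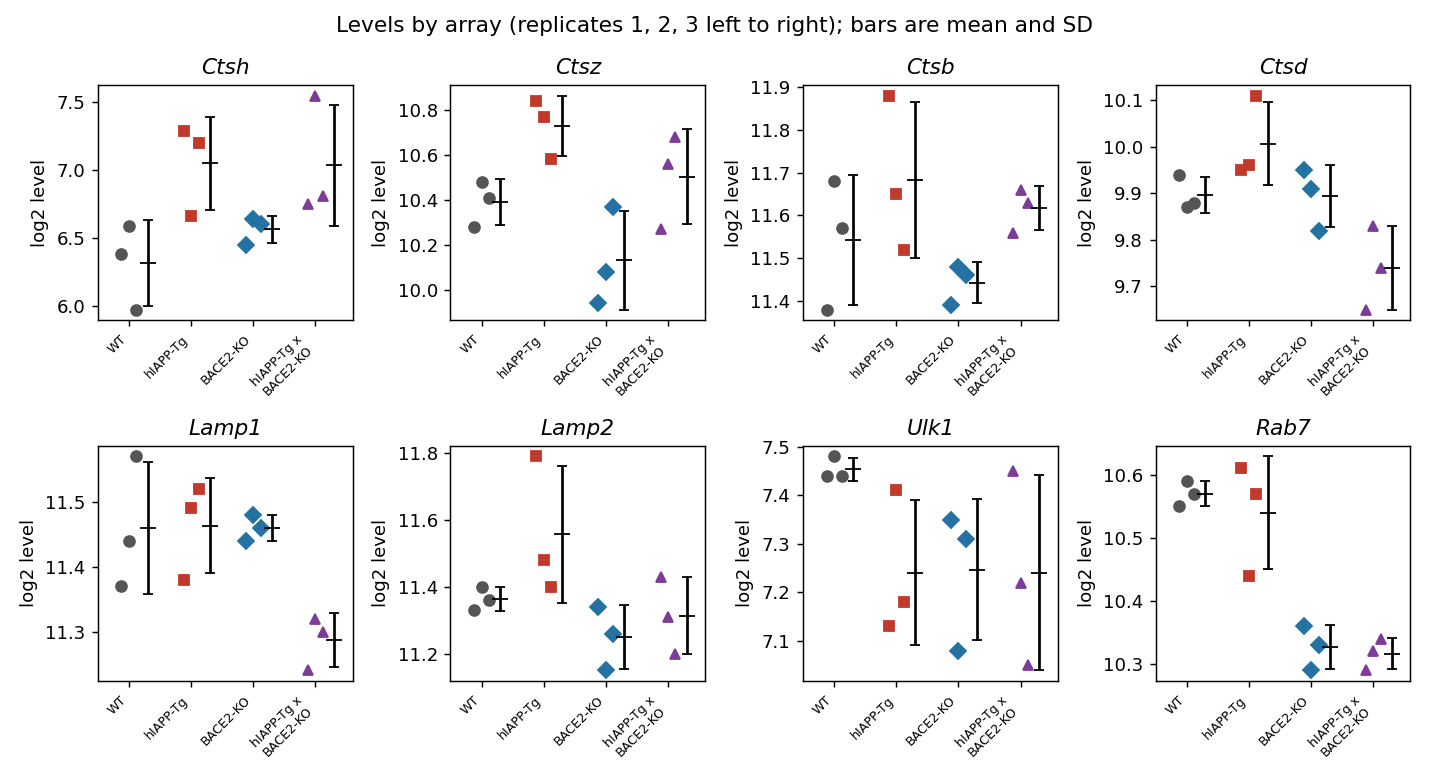
The log2 level of 7 members and of Rab7 in each array, with points for replicates 1 to 3 and bars for the mean and SD of each genotype (n = 3). Lamp1 is lowest in all 3 arrays of the combined genotype (11.24 to 11.32), and the 6 Rab7 readings without BACE2 (10.29 to 10.36) lie below the 6 with BACE2 (10.44 to 10.61).

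A wider list of 102 other lysosome and autophagy genes gave 87 measured and 86 tested genes. Only Rab7 among these 86 was called, in BACE2 loss averaged over transgene status (1.16%, against 0.912% of all genes), and 0 were called in the 7 other comparisons. At an unadjusted p under 0.05 the counts in those 7 were 7 of 86 in hIAPP-Tg minus WT, 3 in BACE2-KO minus WT, 7 in the combined genotype minus WT, 5 minus hIAPP-Tg and 7 minus BACE2-KO. The interaction had 1, and the averaged transgene 16 (18.6%), where 7.59% of all genes did. Of these 16, 4 were higher and 12 lower, against 3.06% and 4.52% of all genes.

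Rab7, the small GTPase of late endosomes that directs their fusion with lysosomes, fell with BACE2 loss by 0.23 (SE 0.044, adjusted p = 0.0296 by limma). It read 10.55, 10.59 and 10.57 in WT, 10.61, 10.44 and 10.57 in hIAPP-Tg, 10.36, 10.29 and 10.33 in BACE2-KO, and 10.29, 10.32 and 10.34 in the combined genotype. All 6 arrays without BACE2 lay below all 6 with BACE2. A dimmer second probe set gave -0.15, and the mean of both gave -0.19 with an adjusted p of 0.0813. The call was lost with 1 array fewer for 9 of 12 arrays, at adjusted p-values of 0.0512 to 0.0881 and differences of -0.22 to -0.24: each WT array, each BACE2-KO array, hIAPP-Tg replicate 3, and replicates 2 and 3 of the combined genotype. It was also lost without a variance trend (adjusted p = 0.0988).

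No other gene of the wider list was called. Atg2a, a lipid transfer protein of autophagosome growth, had the largest positive value for averaged BACE2 loss at 0.40 (SE 0.10, adjusted p = 0.111). It read 5.25, 5.12 and 5.01 in WT, 4.94, 4.82 and 5.04 in hIAPP-Tg, 5.63, 5.49 and 5.39 in BACE2-KO, and 5.17, 5.59 and 5.30 in the combined genotype. Each BACE2-deficient group lay above its counterpart with BACE2.

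Ctss, the cysteine protease cathepsin S, which is also on the macrophage list, had an averaged transgene difference of 0.72 (SE 0.20, adjusted p = 0.644). Lgmn, the asparaginyl protease legumain, read 8.23, 8.24 and 8.02 in WT and 8.32, 9.05 and 8.76 in the combined genotype, a difference of 0.55 (SE 0.15, adjusted p = 0.289). Tpp1, a lysosomal tripeptidyl peptidase, read 9.84, 9.61 and 9.74 in BACE2-KO and 9.34, 9.57 and 9.44 in the combined genotype, a difference of -0.28 (SE 0.082, adjusted p = 0.961). Scarb2, the lysosomal membrane protein LIMP-2, had an averaged transgene difference of 0.19 (SE 0.056, adjusted p = 0.644). Ctss and Scarb2 were higher in that comparison, while most wider-list genes at an unadjusted p under 0.05 (limma) were lower (12 against 4 higher).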

How the data were processed

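Islet RNA was profiled on Affymetrix arrays; the deposited log2 values, 1 per probe set and array (45141 probe sets), were made by the authors with RMA, per the submitters' processing notes, which also list the R package affy and no version. RMA puts arrays on a shared scale, so a shift of all genes at once would not show. Probe sets were named from the platform's annotation table: 28898 had 1 symbol, 551 several, and 15692 were unlisted. Per gene the probe set with the highest mean was kept; genes under the 25th percentile of gene means (log2 3.43) were left out of testing. All 12 arrays entered 1 fit with limma 3.58.1 in R 4.3.3 (lmFit, contrasts.fit, eBayes with trend), checked on simulated data; p-values were Benjamini-Hochberg adjusted over 12825 genes. All 39 members are described; genes of the wider list are Rab7, which was called, and some of the 2 in each direction with the smallest p per comparison. The members and lists were chosen with earlier results of these data known. Alternatives covered the filter, the probe sets, normalization, variance model, array weights, a replicate block, marker covariates, the groups fitted and each array left out. Replicate numbers were not taken as pairs, as the labels do not say that they mark pairs. Of 18 same-number pairs, 10 had a correlation of deviations over 0.1. Same-number correlations ran from -0.13 to 0.37 and different-number ones from -0.44 to 0.30. For 8 of 12 arrays the best match in another group had their number. The p-values of the main fit therefore leave out a block that may exist. Promoters came from the RefSeq table of GRCm38.p6.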

Additional observations from a re-analysis of the deposited data

How the results depend on the processing

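No member was called in any of the 8 comparisons under any alternative run, adjusted p under 0.10 included. Counts over all genes were less stable, and the cause was not tested. With a filter at the 50th percentile they were 1 for hIAPP-Tg minus WT, 6 for BACE2-KO minus WT, 7 for the combined genotype minus WT, and 0 for the averaged transgene and the interaction. With macrophage markers as covariate they were 1 for hIAPP-Tg minus WT, 2 for the combined genotype minus WT and 0 for the averaged transgene. Fitting only the groups compared gave 9 for BACE2-KO minus WT, and for the combined genotype 3 against hIAPP-Tg and 5 against WT. Array weights gave 36 for BACE2-KO minus WT and 34 for the combined genotype minus WT, where no variance trend gave 11. At an adjusted p under 0.10 the counts were 27 for the combined genotype minus hIAPP-Tg, 192 for averaged BACE2 loss and 2 for the interaction. The replicate block gave 29 for the combined genotype minus hIAPP-Tg, 27 minus WT and 205 for averaged BACE2 loss; 8 of 12 arrays correlated best with an array of their own number in another group, so whether numbers pair the arrays is not settled.

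With arrays centred on their median, the combined genotype minus hIAPP-Tg gave 24 calls, and the members' median was 0.017 for hIAPP-Tg minus WT, -0.067 for the combined genotype minus hIAPP-Tg and -0.090 for the interaction. The mean of a gene's probe sets turned the interaction of Atg7 to -0.0067 and of Ctsl to -0.010. Wipi1 turned sign without BACE2-KO replicate 3: with 1 array left out at a time it ranged from -0.32 to 0.010 in BACE2-KO minus WT, -0.0067 to 0.32 in the combined genotype minus BACE2-KO and -0.017 to 0.31 in the interaction.

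With 1 array left out at a time, genes called ranged from 1 to 3 for hIAPP-Tg minus WT, 5 to 16 for BACE2-KO minus WT, 4 to 17 for the combined genotype minus hIAPP-Tg, 0 to 0 minus BACE2-KO and 0 to 18 minus WT, 46 to 108 for averaged BACE2 loss, 1 to 2 for the averaged transgene and 1 to 2 for the interaction. The members' median ranged from -0.053 to 0.0083, 0.010 to 0.033, -0.048 to 0.020, -0.072 to -0.0067, -0.063 to -0.0083, -0.017 to 0.016, -0.069 to -0.013 and -0.065 to 0.0033 in the same order. Counts moved by over 1.5 times without these arrays: WT replicate 1 (7 for BACE2-KO minus WT, 6 for the combined genotype minus WT, 46 for averaged BACE2 loss) and 2 (8, 6 and 46); WT replicate 3 (10) and BACE2-KO replicate 3 (11) for the combined genotype minus WT. BACE2-KO minus WT gave 5, 6 and 9 without replicates 1, 2 and 3 of BACE2-KO, 9 without hIAPP-Tg replicate 2 and 10 without replicate 3 of the combined genotype. Without replicates 1, 2 and 3 of the combined genotype, its counts were 5, 4 and 8 minus hIAPP-Tg and 3, 0 and 4 minus WT. Averaged BACE2 loss gave 63, 64 and 75 without hIAPP-Tg replicates 2 and 3 and replicate 3 of the combined genotype, and the combined genotype minus hIAPP-Tg gave 6 and 7 without those 2 hIAPP-Tg arrays. hIAPP-Tg minus WT gave 1 without hIAPP-Tg replicate 2, the interaction 2 without hIAPP-Tg replicate 3, and the averaged transgene 2 without that array or replicate 1 of the combined genotype. Members' medians moved by over the spread between arrays (0.034) without replicate 1 of the combined genotype (0.020 minus hIAPP-Tg, -0.0067 minus BACE2-KO, 0.0033 for the interaction) or hIAPP-Tg replicate 2 (-0.013 for the averaged transgene).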

Other observations

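Members with and without CACGTG in the promoter window were set side by side as a description, with no test. For averaged BACE2 loss the 12 with it had a median of 0.031 (-0.14 to 0.27, 6 higher) and the 19 without it -0.018 (-0.24 to 0.092, 7 higher). For the averaged transgene the medians were -0.047 with it and -0.093 without it. In hIAPP-Tg minus WT they were -0.0083 and -0.040. The 8 members with no promoter in the table, Ctsb and Ctsh among them, had a median of 0.073 in that comparison. The wider list held CACGTG in 20 of 74 promoters (27%).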
